A study of Mus musculus with 5 samples.

Results

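A set of 8 genes that restrain signalling through the T cell receptor (TCR) was examined for open chromatin in naïve CD8+ T cells, namely Cd5, Cd6, Ptpn22, Ptpn6, Cblb, Dgka, Dgkz and Ubash3a. Every DNase-seq peak whose summit lay in the body of one of these 8 genes, or within 50 kb on either side of it in the mm9 annotation, was counted as a member. This gave 75 of 31116 peaks of the WT list and 52 of 25525 peaks of the dKO list, or 127 of 56641 peaks in both lists. All mice carried a Rosa26-GFP reporter and the hCD2-Cre transgene (hCD2-Cre+), in which human CD2 regulatory sequences drive the Cre in T cells. WT mice were Tcf7+/+ and Lef1+/+, and dKO mice were homozygous for floxed alleles of both genes (Tcf7 fl/fl and Lef1 fl/fl), so that cells in which the Cre was active lost the transcription factors (TFs) Tcf1 and Lef1. The cells were sorted from spleens as GFP+ TCRβ+ CD62L-high, CD44-low to intermediate CD8+ cells. Replicates, 3 of WT and 2 of dKO, were pooled by the authors before peaks were called, so that each value below stands for 1 pool. The pooled lists hold no spread between replicates and allow no test between genotypes, and the single libraries were not analysed here. Intervals given below are at the 95% level and cover counting error only.

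The 8 proteins act at successive steps below the TCR. CD5 and CD6 are surface glycoproteins of the scavenger receptor family that dampen signalling from the plasma membrane. Ptpn22 and Ptpn6 (SHP-1) are tyrosine phosphatases that remove activating phosphates from Lck, ZAP-70 and their substrates. Cblb is an E3 ubiquitin ligase that raises the threshold for activation and the need for CD28 costimulation. Dgka and Dgkz are kinases that convert diacylglycerol to phosphatidic acid and so end its signal to Ras and protein kinase C. Ubash3a (STS-2) is a ubiquitin-binding protein that lowers signalling in activated T cells. All 8 are known for their part in T cell tolerance and are expressed in T cells.

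DNase I cuts open chromatin preferentially, and the number of fragments over a peak's summit is its pileup. The WT pool held 83923734 fragments and the dKO pool 62242963, a ratio of 0.742, so pileups of the pools were not compared without scaling. Peaks that met the study's criteria, a fold enrichment over local background of at least 4 with p under 1e-05 and q under 0.05, are called ChrAcc sites, or sites. A site's rank is the percentile of its fold enrichment within its own list, with 100 as the highest, and sites of the lists that overlapped by at least 1 bp are called shared. The pileup ratio of a shared site is given as log2 of dKO over WT after subtracting the median of all 20533 shared sites, which was -0.56, and is called the centred log2 ratio. Sites are numbered within each gene in the order of chromosome position. A promoter site has its summit within 1 kb of an annotated transcription start site (TSS). Of the promoters of 9 T cell marker genes, 9 held a WT site and 8 a dKO site, Cd3d being the exception, whereas promoters of 5 B cell, 2 NK cell and 2 CD4 T cell marker genes held none in either list, and of 4 myeloid genes 1, Itgam, held a site in WT.

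Of the 75 WT peaks at the 8 loci, 67 met the criteria, as did 50 of the 52 dKO peaks. The 8 WT peaks that missed them lay at Cblb (5 peaks) and at Dgka, Dgkz and Ptpn22 (1 each), with fold enrichments from 3.09 to 3.94. The windows of Cd5 and Cd6 overlap on chromosome 19, and 7 sites were counted for both genes. Joined by overlap, the 67 WT and 50 dKO sites made 71 sites, of which 46 were shared, 21 were found in WT only and 4 in dKO only. None of these 25 sites overlapped any deposited peak of the other list, including peaks under the criteria. Of the 8 genes, 7 had more WT than dKO sites, none had more dKO sites, and Dgka had 7 of each. Cd5 and Cd6 are not independent in this count. The WT-only Cd6 sites 1 and 3 were counted for both, and without them neither gene had more WT than dKO sites. The WT list was also the longer one, with 28472 sites against 24363, or 1.17 WT sites per dKO site, where the 8 loci had 1.34. With lists of equal length, the 20000 peaks of lowest p in each, the loci held 47 WT and 44 dKO sites (1.07 per dKO site), and 3 genes had more WT sites, 3 more dKO sites and 2 equal numbers. With all sites, the largest gaps were at Dgkz, with 10 WT and 4 dKO sites, and at Cblb, with 12 and 6. Cd5 had 12 WT and 10 dKO sites, Cd6 had 11 and 9, Ptpn22 had 6 and 5, Ptpn6 had 12 and 11, and Ubash3a had 4 and 3. At equal list length Dgkz had 7 WT and 4 dKO sites and Cblb 8 and 6.

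**Figure D1:**
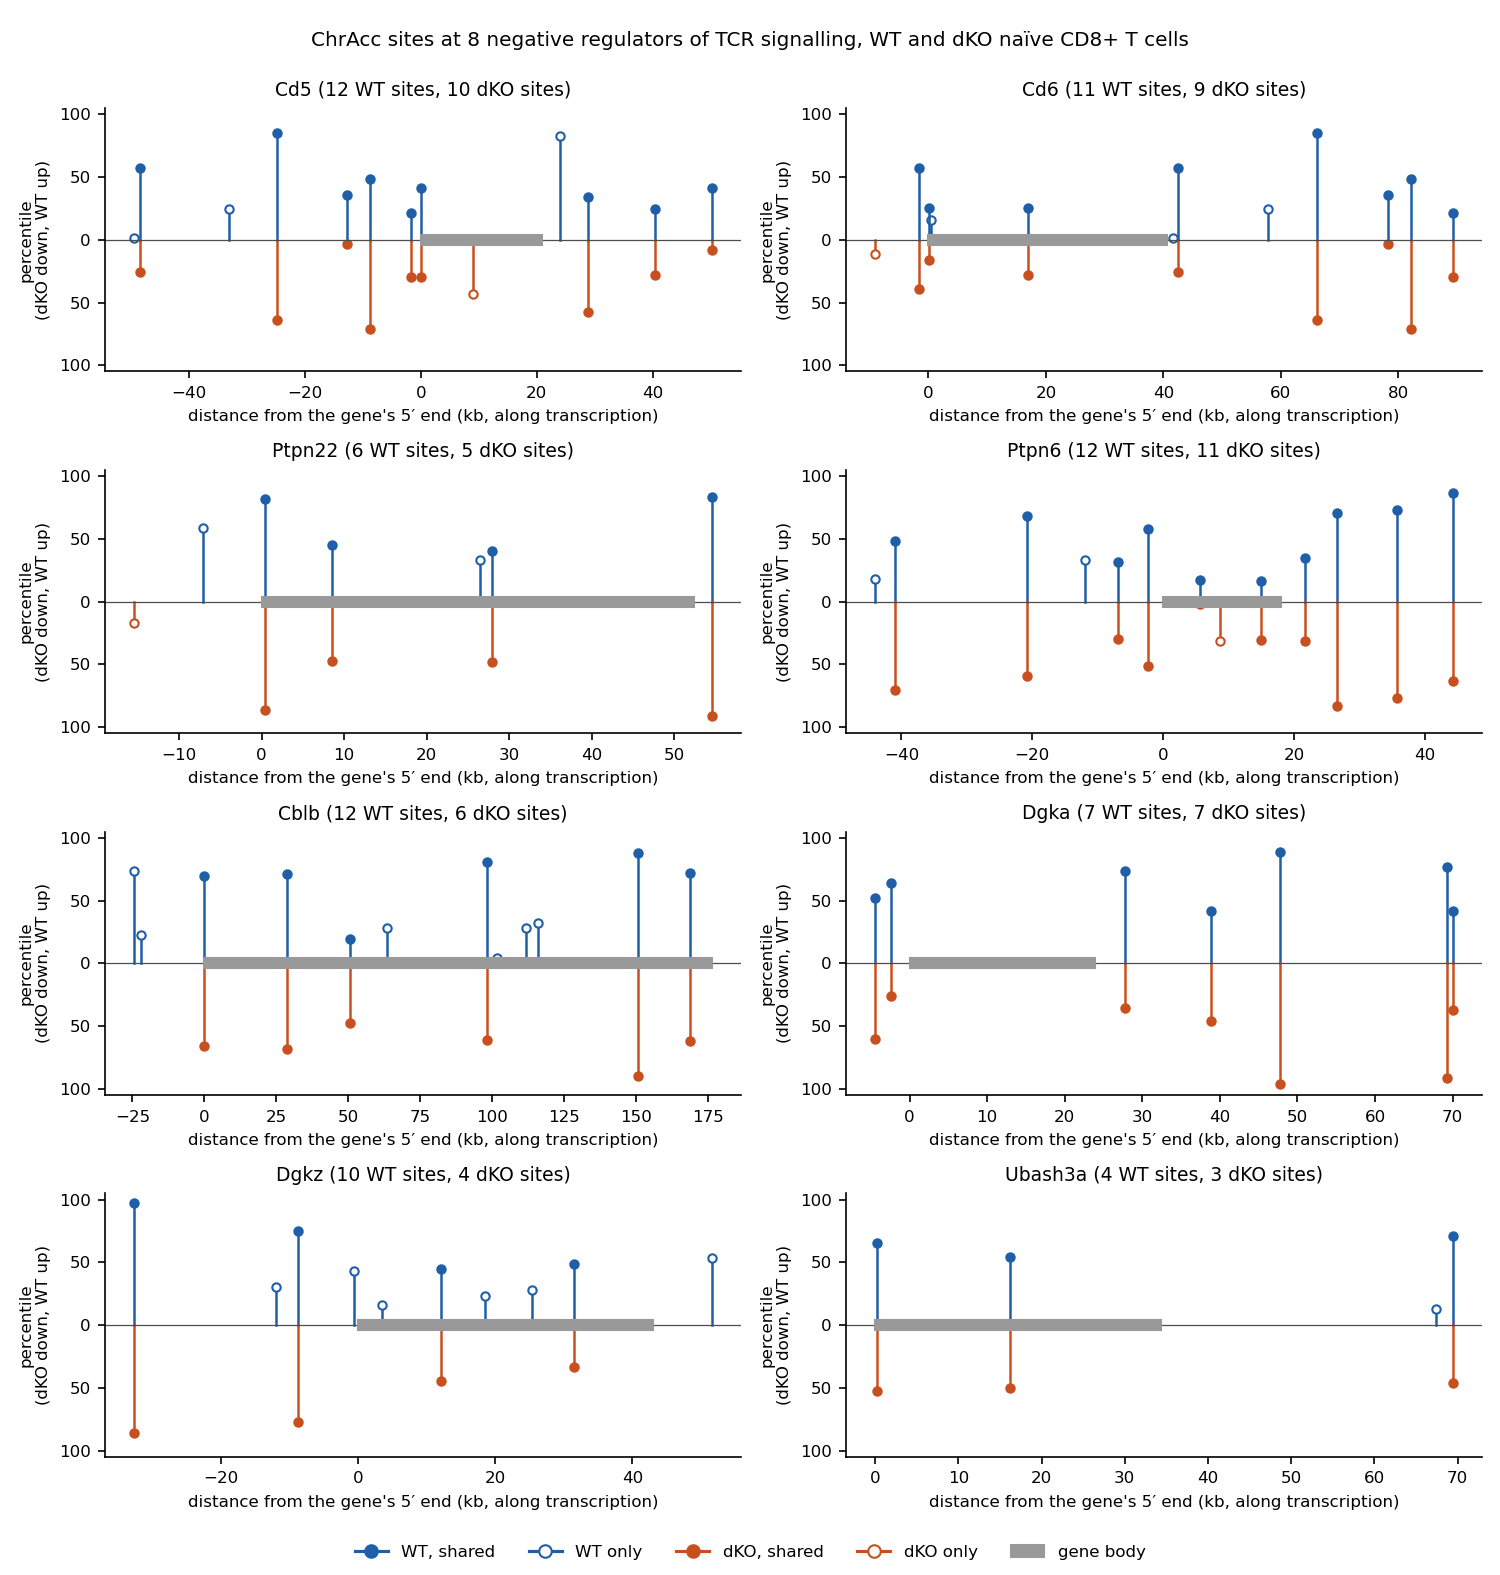
Position and rank of every ChrAcc site at the 8 loci. The x axis is the distance from the gene's 5′ end in kb along the direction of transcription, the y axis the percentile within the pool's own list, drawn upward for WT and downward for dKO; open circles are sites found in 1 list only and the grey bar is the gene body. Open WT circles gather at Cblb and Dgkz (6 each), and all 7 sites of Dgka are shared.

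The share of WT sites without a dKO site was 31.3% at the 8 loci together (21 of 67, Wilson interval 21.5 to 43.2%), against 27.6% of all 28472 WT sites, which lies inside that interval. In the other direction, 8.0% of dKO sites had no WT site (4 of 50, interval 3.16 to 18.8%), against 14.4% of all 24363 dKO sites. Neither background share lay outside the interval of the 8 loci. With lists of equal length the shares were 23.4% of WT and 18.2% of dKO sites, against 19.7% and 18.9% over the whole lists, and with a minimum fold enrichment of 8 they were 28.1% and 17.9%, against 25.9% and 14.6%. The share of dKO sites without a WT site thus lay under the share over the whole list with the study's criteria and above it with the stricter fold enrichment. The genes varied among themselves. No dKO site matched 6 of the 10 WT sites of Dgkz (interval 31.3 to 83.2%) and 6 of the 12 of Cblb (interval 25.4 to 74.6%), while all 7 of Dgka had one (upper bound of the missing share 35.4%). The interval of Dgkz, as 1 of 8 genes looked at, lies above 27.6%, and that of Cblb spans it.

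The sequences of 9 sites that the differences below turn on are printed here from the plus strand of mm9, as the summit with 100 bp on either side (50 bp for Dgkz site 5, to stop short of the first exon of transcript Dgkz-002). They are the WT-only sites of highest rank at Cd5 and Cblb, the pair of shared sites beside Dgka that ranked far lower in dKO, a WT-only and a shared promoter site of Dgkz, the intronic Cblb site whose pileup was higher in dKO, and the dKO-only sites inside Cd5 and Ptpn6. Capitals mark matches, on either strand, to TGTGGTT (the core of the Runx motif, AACCACA on the other strand) or to AGGGGGC (letters of the core of the CTCF motif). Other forms of these motifs were not searched and stay in lower case. No match to ATCAAAG, the Tcf/Lef core, or to the Ets letters CCGGAAG or the AP-1 letters TGANTCA lies in these windows.
Cd5 site 4, chr19:10789274-10789474: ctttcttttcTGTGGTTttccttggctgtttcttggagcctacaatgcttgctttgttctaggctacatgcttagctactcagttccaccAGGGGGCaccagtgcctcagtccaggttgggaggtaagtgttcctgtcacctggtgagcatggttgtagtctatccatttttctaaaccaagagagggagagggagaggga
Cblb site 1, chr16:52007188-52007388: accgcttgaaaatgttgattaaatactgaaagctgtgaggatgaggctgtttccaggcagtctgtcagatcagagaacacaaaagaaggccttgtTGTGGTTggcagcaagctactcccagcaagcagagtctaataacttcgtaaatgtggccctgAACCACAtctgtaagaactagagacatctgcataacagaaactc
Dgka site 5, chr10:128153262-128153462: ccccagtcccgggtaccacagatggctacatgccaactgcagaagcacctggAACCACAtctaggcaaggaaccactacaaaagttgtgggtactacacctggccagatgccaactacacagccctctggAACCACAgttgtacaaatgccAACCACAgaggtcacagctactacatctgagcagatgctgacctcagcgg
Dgka site 6, chr10:128183376-128183576: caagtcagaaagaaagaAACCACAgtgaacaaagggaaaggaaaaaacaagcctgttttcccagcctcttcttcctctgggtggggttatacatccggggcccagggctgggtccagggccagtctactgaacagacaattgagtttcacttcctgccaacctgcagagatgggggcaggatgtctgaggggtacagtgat
Dgkz site 7, chr2:91816418-91816618: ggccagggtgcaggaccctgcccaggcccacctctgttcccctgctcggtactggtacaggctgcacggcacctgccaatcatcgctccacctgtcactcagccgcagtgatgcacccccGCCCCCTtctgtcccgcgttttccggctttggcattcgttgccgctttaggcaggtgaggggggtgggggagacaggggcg
Dgkz site 5, chr2:91803845-91803945: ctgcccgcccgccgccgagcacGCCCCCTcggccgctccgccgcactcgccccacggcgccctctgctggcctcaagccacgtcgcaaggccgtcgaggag
Cblb site 5, chr16:52082041-52082241: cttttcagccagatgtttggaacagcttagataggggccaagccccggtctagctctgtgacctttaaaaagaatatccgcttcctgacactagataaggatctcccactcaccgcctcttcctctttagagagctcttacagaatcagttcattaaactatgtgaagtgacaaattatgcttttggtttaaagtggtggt
Cd5 site 5, chr19:10804399-10804599: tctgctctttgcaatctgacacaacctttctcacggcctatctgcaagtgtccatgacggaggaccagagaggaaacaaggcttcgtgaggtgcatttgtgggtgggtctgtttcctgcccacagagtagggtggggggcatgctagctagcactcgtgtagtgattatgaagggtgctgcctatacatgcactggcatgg
Ptpn6 site 6, chr6:124679922-124680122: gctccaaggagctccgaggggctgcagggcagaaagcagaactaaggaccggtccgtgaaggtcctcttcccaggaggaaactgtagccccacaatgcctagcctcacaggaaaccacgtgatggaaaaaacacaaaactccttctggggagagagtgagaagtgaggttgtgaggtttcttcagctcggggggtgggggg

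Dgkz encodes the zeta isoform of diacylglycerol kinase. The gene lies on the minus strand (chr2:91772981-91816021) and has 3 annotated coding TSSs, each of which carried a WT site. In the dKO list only the middle TSS, that of transcript Dgkz-002, carried one. Dgkz site 5, with its summit 81 bp upstream of that TSS, had a pileup of 75 in WT and 49 in dKO and ranked at percentile 44.6 and 44.2, with a centred log2 ratio of -0.05 (interval -0.60 to 0.49). The middle promoter thus had almost the same rank in both pools. At the 5′-most TSS, Dgkz site 7 (497 bp upstream, 119 bp wide) had a WT pileup of 47 at percentile 43.1 and no dKO peak. At the third TSS, that of Dgkz-003, Dgkz site 3 (18 bp upstream) had a WT pileup of 35 at percentile 28.1 and no dKO peak. To set depth beside these values, the WT pileups were scaled by the median dKO to WT ratio of 0.676. Sites 7 and 3 would then have pileups of 31.8 and 23.7, where a fold enrichment of 4 would need 18.5 and 17.0 fragments at dKO depth. The part of depth in their absence from the dKO list was not tested.

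The other 4 WT-only sites of Dgkz lay in its first intron (site 4, percentile 22.9, and site 6, percentile 16.1), 8.59 kb beyond its 3′ end within Chrm4 (site 1, pileup 61, percentile 53.5), and 11.9 kb upstream in intron 8 of Creb3l1 (site 9, percentile 30.3). The 2 sites of highest rank were shared. The WT site of highest rank at all 8 loci was Dgkz site 10, 32.6 kb upstream in intron 1 of Creb3l1, with a pileup of 138, a fold enrichment of 18.3 and percentile 97.5. In dKO cells the same site had a pileup of 63 and percentile 86.3, and its centred log2 ratio was -0.57 (interval -1.02 to -0.13). In both lists it had the highest rank of the locus. Site 8, also within Creb3l1, ranked at 75.04 in WT and 77.4 in dKO, and site 2, in intron 3 of Dgkz, ranked at 49.0 and 33.0.

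Dgka, the alpha isoform, showed another pattern. Its gene body (chr10:128157197-128181112, minus strand) held no site in either list, and none lay within 1 kb of its annotated TSS, where WT had a peak under the criteria, with a pileup of 44 and a fold enrichment of 3.46. All 7 sites around the gene were shared, and the pair nearest to it ranked much lower in dKO. Dgka site 6, 2.36 kb upstream of the TSS, had a pileup of 132 in WT and 47 in dKO, at percentiles 63.9 and 26.1, with a centred log2 ratio of -0.93 (interval -1.44 to -0.43). Dgka site 5, 3.83 kb beyond the 3′ end and in coding exon 6 of the melanocyte gene Pmel, had pileups of 86 and 29, percentiles 73.4 and 35.7, and a centred log2 ratio of -1.0035 (interval -1.66 to -0.38). At -37.8 points each, dKO minus WT, these were the largest differences in rank among the 46 shared sites. Site 5 carried 3 matches to the Runx core and site 6 carried 1, as printed above.

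The other 5 sites of the Dgka window lay over promoters of neighbouring genes, and 4 of them ranked higher in dKO. Of all shared promoter sites, 36.1% ranked higher in dKO. The promoter of Rab5b, a GTPase of early endosomes, was the strongest site of the window in both lists and ranked at 88.5 in WT and 96.4 in dKO, that of the cell cycle kinase gene Cdk2 at 41.5 and 45.9, and that of Wibg, only 4.43 kb upstream of Dgka, at 52.4 and 59.9. Suox, which encodes sulfite oxidase, had a pair of promoter sites, at 41.7 and 37.2 and at 76.5 and 91.4. Within this window, only the pair of sites flanking Dgka differed by 20 points or more.

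Cblb spans 176 kb (chr16:52031662-52208160, plus strand) and had the most sites inside a gene body, 9 in WT and 5 in dKO. Its promoter, Cblb site 3, was open in both pools, with pileups of 132 and 100 and percentiles 69.6 and 66.2. Of its WT sites, 6 had no dKO counterpart. The strongest was Cblb site 1, 24.4 kb upstream of the TSS, with a pileup of 77, a width of 419 bp and percentile 73.5, and with 2 matches to the Runx core. Its neighbour, site 2, lay 21.9 kb upstream with a pileup of 40 at percentile 22.5 and 1 such match. The nearest dKO site, that of the promoter, was 21.9 kb from site 2. The other 4 were intronic, namely site 6 in intron 3 (percentile 27.9), site 8 in intron 5 (3.99), and sites 9 and 10 in intron 9 (28.2 and 32.1).

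Among the 6 shared sites of Cblb, site 5 in intron 3 stood out. Its pileup was 42 in WT and 59 in dKO, although the dKO pool was the shallower one, and its percentile was 19.4 in WT and 47.7 in dKO. The centred log2 ratio was 1.06 (interval 0.46 to 1.66), the highest of the 46 shared sites and the only one past 2-fold in favour of dKO. When pileups were scaled by the fragments of each pool instead, it was 0.92 and no longer past 2-fold. Site 7 in intron 4 differed the other way, at percentile 80.9 in WT and 61.1 in dKO, just under 20 points apart. Site 11 in intron 13 had the highest rank of the locus in both lists, 88.2 and 89.5. Its pileups were 87 in WT and 85 in dKO, and its centred log2 ratio was 0.53 (interval 0.08 to 0.98). Sites 4 and 12 ranked at 71.1 and 68.1 and at 71.8 and 62.0.

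Cd5 and Cd6 lie side by side on chromosome 19, both on the minus strand (chr19:10792633-10813464 and chr19:10863831-10904548). The Cd5 promoter, site 6, was shared, with pileups of 58 and 32 and percentiles 41.3 and 29.3. The largest single difference at any of the 8 loci, by the rank of a site found in 1 list only, was Cd5 site 4, 3.26 kb beyond the 3′ end of Cd5. It had a WT pileup of 78, a fold enrichment of 13.2 and percentile 83.1, and the nearest dKO site was 4.69 kb away. The site is narrow, 113 bp wide, and its centre holds the AGGGGGC letters printed above, with a Runx core match farther from the summit. Scaled to the dKO pool its pileup would be 52.7, where a fold enrichment of 4 would need 17.8.

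Inside the body of Cd5 the only site was found in dKO. Cd5 site 5 in intron 2, 8.96 kb from the TSS, had a dKO pileup of 32 at percentile 43.5, the highest rank of the 4 dKO-only sites, and WT, the deeper pool, had no peak there. Sites on either side of Cd5 differed in both directions. Site 3, 7.96 kb downstream in Vps37c, ranked at 34.0 in WT and 57.5 in dKO, and site 8, 8.81 kb upstream in A430093F15Rik, at 48.1 and 71.0 with the same pileup of 60 in both pools and as the strongest dKO site of the locus. Ranking lower in dKO were site 1 over the promoter of Vps37c (41.3 and 8.18), site 9 (35.5 and 3.66) and site 10 (85.0 and 64.2), of which the last 2 lie 12.8 and 24.9 kb upstream of Cd5. The interval of the centred log2 ratio spanned 0 at site 1 (-1.38 to 0.31), site 3 (-0.16 to 1.21) and site 9 (-1.34 to 0.18). It lay above 0 at site 8 (0.02 to 1.11) and below 0 at site 10 (-1.12 to -0.05). Site 10 had pileups of 97 and 44 and was the strongest WT site between the genes. The remaining shared sites, site 2 (24.3 and 27.9) and site 7 over the promoter of A430093F15Rik (21.7 and 29.6), differed by under 8 points.

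The Cd6 promoter held 2 WT sites and 1 dKO site. Cd6 site 6, at the annotated start of the gene, was shared, with pileups of 42 and 23 and percentiles 25.8 and 15.7, whereas site 5, 0.421 kb into the gene, was found in WT only, with a pileup of 36 at percentile 16.1. Cd6 site 2, 1.78 kb beyond the 3′ end, had pileups of 68 and 26, percentiles 56.9 and 26.1, and a centred log2 ratio of -0.82 (interval -1.53 to -0.15). WT-only sites also lay 17.2 kb (site 1, percentile 24.3) and 0.875 kb (site 3, percentile 1.58) beyond the 3′ end. The single dKO-only site, site 8, lay 9.07 kb upstream with a pileup of 20 at percentile 11.3. Site 4 in intron 1 ranked at 25.7 and 27.9 and site 7, 1.58 kb upstream, at 57.1 and 39.0, so that of the shared sites numbered under Cd6 all but site 4 ranked lower in dKO. Among these, the interval of the centred log2 ratio lay below 0 at site 2 alone. Of all shared sites, 58.7% ranked higher in WT.

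All 4 shared sites of the phosphatase gene Ptpn22 (chr3:103663718-103716170, plus strand) ranked higher in dKO, by at most 8.09 points. The interval of the centred log2 ratio spanned 0 at all 4, and 41.2% of all shared sites ranked higher in dKO. The promoter of Ptpn22, site 3, was the strongest site of the gene itself, with pileups of 146 and 104 and percentiles 81.7 and 86.2. The promoter of the neighbour Rsbn1, the highest in rank of the window in both lists, stood at 83.2 and 91.3. Sites 4 and 6, in introns 1 and 13, ranked at 45.03 and 47.5 and at 40.5 and 48.3. Against this, 2 sites were found in WT only, site 2 at 7.54 kb upstream of the TSS with a pileup of 59 at percentile 58.4, and site 5 in coding exon 13 with a pileup of 35 at percentile 32.8. The dKO-only site 1, 15.9 kb upstream, had a pileup of 22 at percentile 16.8.

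At Ptpn6 (chr6:124670725-124688732, minus strand) the distal TSS of transcript Ptpn6-001 carried no site in either list. The internal TSS of transcript Ptpn6-002 carried site 7, a weak one, with pileups of 38 and 20 and percentiles 16.9 and 2.12. Inside the gene, site 6 in intron 3 was found in dKO only (pileup 33, percentile 31.7), and site 5 in intron 11 ranked at 16.2 and 30.6. The locus is dense in genes, and 7 of its 13 sites lay over promoters or bodies of Lpcat3, Emg1, Phb2, Grcc10, Atn1 and Lrrc23. Site 1 in intron 1 of Lpcat3, a phospholipid acyltransferase gene, ranked at 86.9 in WT, the highest there, and 63.4 in dKO, and the promoter of Lrrc23 (site 12) at 48.2 and 70.9. The intervals of the centred log2 ratios of sites 1 and 12, -1.11 to 0.01 and -0.21 to 0.95, both spanned 0. The shared promoter of Emg1 and Phb2 ranked at 70.9 and 83.1, the highest in dKO, and that of Grcc10 at 58.0 and 51.3. WT-only sites lay 12.0 and 44.0 kb upstream of Ptpn6 (site 10, percentile 33.5, and site 13, percentile 18.2). Sites 2, 4, 9 and 11 differed by under 9 points.

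Ubash3a (chr17:31344818-31379147, plus strand) had the fewest sites. Its promoter, site 1, had pileups of 86 and 39 and percentiles 65.5 and 52.5, with a centred log2 ratio of -0.58 (interval -1.16 to -0.01), the lowest among promoter sites of the 8 genes. Site 2 in intron 6 ranked at 54.0 and 50.1. The remaining sites were near Rsph1, a gene of cilia, where the promoter ranked at 71.4 in WT and 45.9 in dKO and a site in intron 1, found in WT only, had a pileup of 26 at percentile 13.2. The interval of the centred log2 ratio of the Rsph1 promoter site, -0.934 to 0.365, spanned 0.

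**Figure D2:**
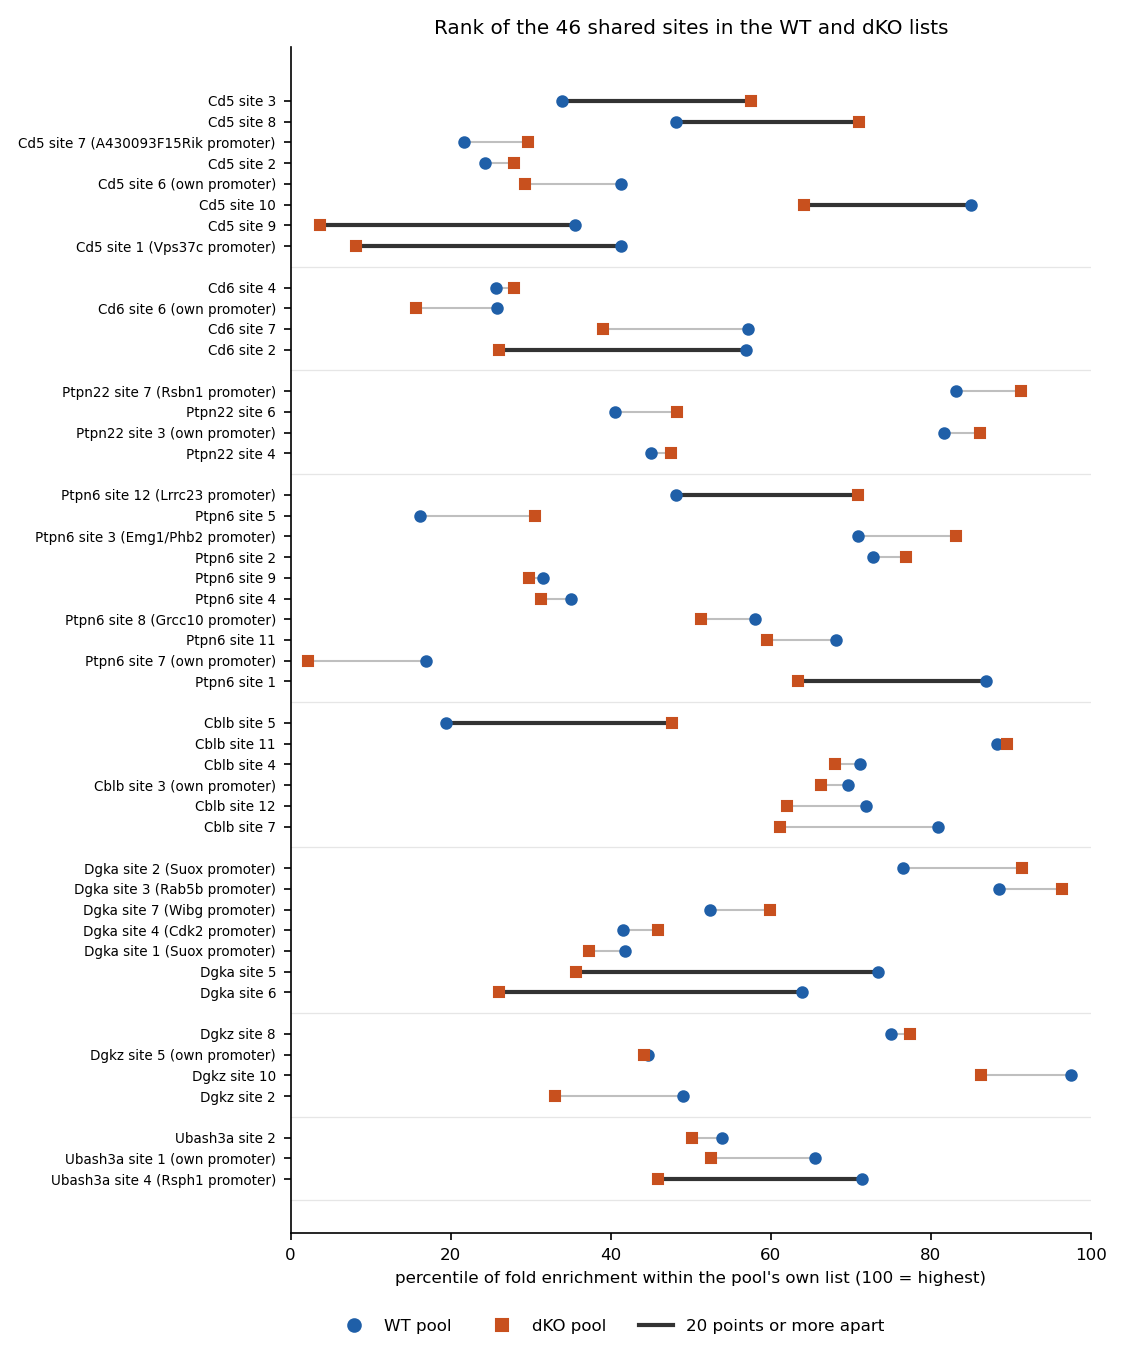
Percentile of each of the 46 shared sites in the WT list (circles) and the dKO list (squares), grouped by gene and sorted by the difference. Dark lines join values 20 points or more apart, which were 8 sites ranking higher in WT and 4 ranking higher in dKO; no site at the 8 genes' own promoters has a dark line.

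Across the 46 shared sites, 26 ranked higher in WT (56.5%, interval 42.2 to 69.8%) and 20 in dKO (43.5%), against 58.7% and 41.2% of all shared sites. A difference of 20 points or more was seen at 8 sites in favour of WT (17.4%, interval 9.09 to 30.7%), where 13.7% of all shared sites passed it, and at 4 in favour of dKO (8.70%, interval 3.43 to 20.3%), against 6.75% of all. Past 2-fold in the centred ratio were 1 site higher in WT, Dgka site 5, and 1 higher in dKO, Cblb site 5, each 2.17% of the 46 (interval 0.385 to 11.3%), where 0.75% and 1.51% of all shared sites passed in those directions. For these 4 shares at 20 points and 2-fold, the background was inside each interval. The median centred log2 ratio of the 46 was -0.07, inside the interquartile range of all shared sites, from -0.22 to 0.24. The interval of the ratio lay below 0 at 6 sites (13.0%, Wilson interval 6.12 to 25.7%) and above 0 at 3 (6.52%, 2.24 to 17.5%), where it did so at 5.39% and 7.56% of all shared sites. The first of these backgrounds lay just under the interval of the loci and the second inside it.

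**Figure D3:**
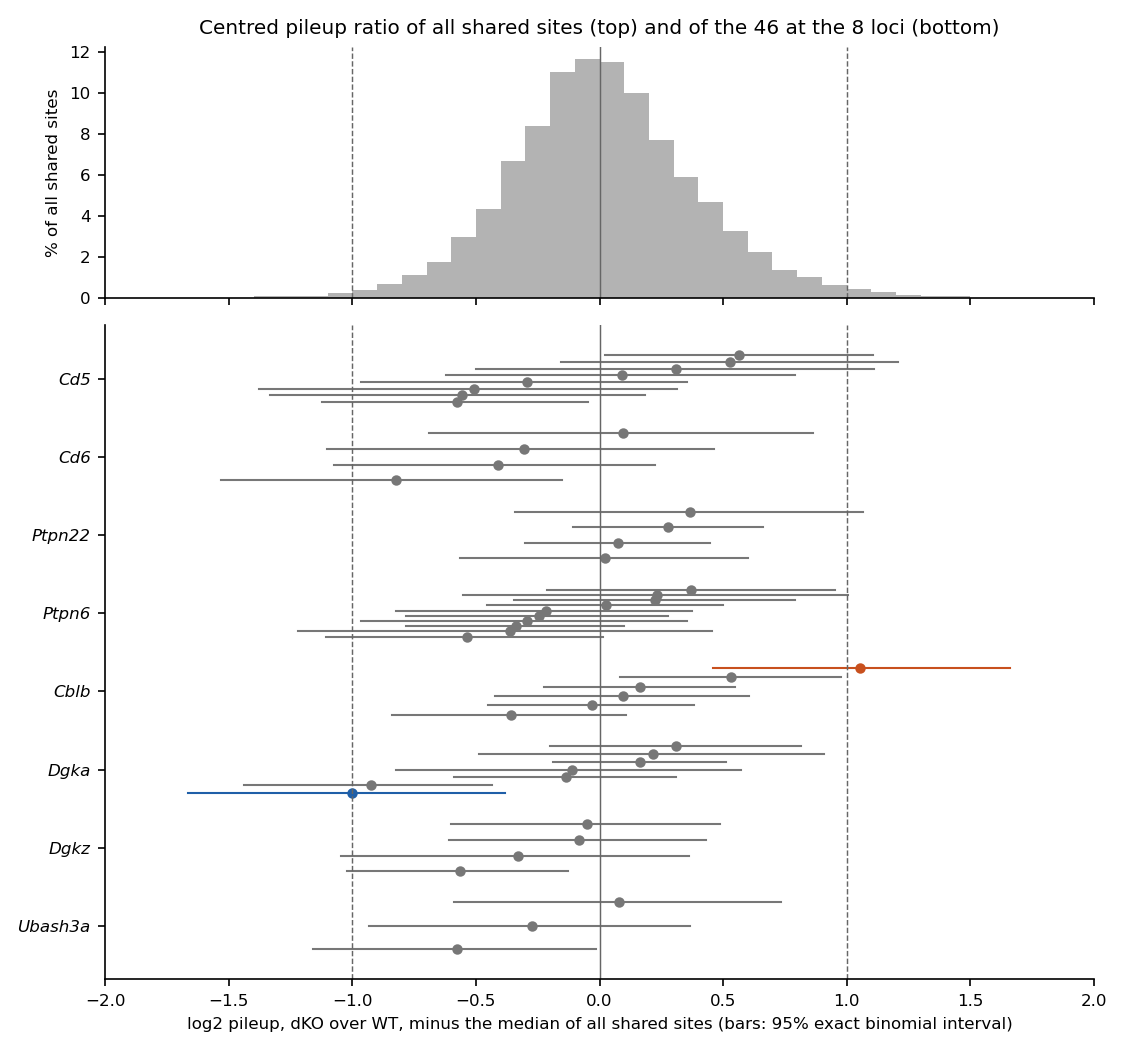
Centred log2 pileup ratio (x axis, dKO over WT after subtracting the median of all shared sites) as a histogram of all 20533 shared sites and, below, for each of the 46 shared sites by gene with its exact binomial interval. Dashed lines mark 2-fold; Dgka site 5 lies at -1.0035 and Cblb site 5 at 1.06, while the other 44 lie between the lines.

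Of the 8 genes, 7, all but Dgka, had a shared site at their own promoter, and the ranks differed by between -14.7 points (Ptpn6) and 4.51 points (Ptpn22), with centred log2 ratios from -0.58 (Ubash3a) to 0.16 (Cblb). No shared promoter site of these genes passed either threshold. WT-only promoter sites were the 3 described above, 1 at Cd6 and 2 at Dgkz, and there were no dKO-only ones. The 12 sites over promoters of neighbouring genes were all shared, 4 ranking higher in WT and 8 in dKO (66.7%, interval 39.1 to 86.2%). Of all 9028 shared promoter sites, 63.9% ranked higher in WT and 36.1% in dKO.

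Sites found in WT only were weaker and narrower than shared ones. Their median percentile was 28.1 against 55.4 for shared sites in WT, and their median width 181 against 253 bp, which is also how the classes differed over the whole WT list (24.3 against 60.9, and 146 against 238 bp). Of these 21, 4 ranked above percentile 50, Cd5 site 4, Cblb site 1, Ptpn22 site 2 and Dgkz site 1. To set depth beside the absence of a dKO peak, the WT pileup of each was scaled by 0.676 and the pileup that a fold enrichment of 4 requires was computed from the site's WT background at the ratio of the pools' fragments. In 19 of the 21 sites the scaled pileup, between 17.6 and 52.7 for all 21, exceeded the requirement, and in 2 (Cd6 site 3 and Cblb site 8) it did not. It was met at 83.0% of all 7846 WT-only sites. The 2 sites under it had the lowest WT fold enrichments of the 21, 4.10 and 4.30. Because the requirement is derived from each site's own WT pileup and fold enrichment, the comparison largely restates that fold enrichment. It allows for no counting error in dKO, as at Ubash3a site 3 with 17.6 against 16.0. The part of depth in the absence of dKO peaks was not tested. Of the 21 sites, 5 were under 120 bp wide, and the shortest dKO site of the whole list measured 97 bp, so a narrower stretch of enrichment could not be listed, and the part of width in their absence was not tested.

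**Figure D4:**
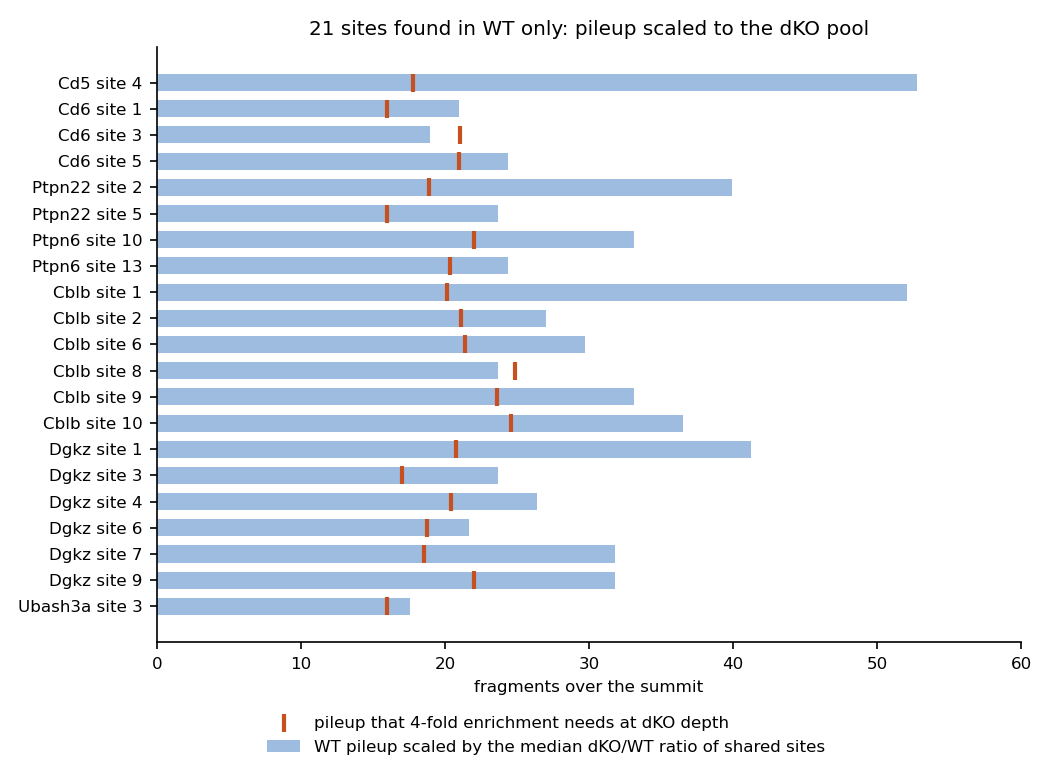
The 21 WT-only sites, with the WT pileup scaled by the median dKO to WT ratio of shared sites (bars, in fragments over the summit) and the pileup that 4-fold enrichment needs at dKO depth (ticks). Cd5 site 4 and Cblb site 1 reach 52.7 and 52.1 fragments, and the bars of Cd6 site 3 and Cblb site 8 end before their ticks. Each tick is derived from the site's own WT pileup and fold enrichment.

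Sequence within 100 bp of the summits was searched for short cores on both strands. ATCAAAG, the Tcf/Lef core, was found at 1 of the 67 WT sites (1.49%, interval 0.264 to 7.98%) and 1 of the 50 dKO sites, against 3.81% of all WT and 2.42% of all dKO sites. The match is at Ptpn6 site 8, the shared promoter of Grcc10. It was found at 0 of the 21 sites of the loci that were in WT only (upper bound 15.5%), against 6.98% of such sites over the whole list. The Runx core TGTGGTT matched at 6 of the same 21 (28.6%, interval 13.8 to 49.96%) and 5 of the 46 shared sites (10.9%), against 10.2% and 9.45% over the whole WT list. Those 6 were Cd5 site 4, Cd6 sites 1 and 3, Ptpn6 site 13, and Cblb sites 1 and 2. Within 50 bp of the summit the Runx core matched at 3 of the 21 (14.3%), against 7.14% of all WT-only sites. Of the 4 dKO-only sites, 1 (Ptpn22 site 1) held the Runx core within 100 bp, against 16.5% of all 3519 dKO-only sites. CCGGAAG was present at 2 WT sites, over the promoters of Emg1 and Phb2 and of Wibg, and TGANTCA at 2 (against 9.0% and 6.09% of all WT sites). AGGGGGC, chosen after the sequences had been seen, was present at 7 of the 67 (10.4%), as in 10.4% of all WT sites. A match describes letters only and says nothing of binding. Only the letters given were searched, so sites with other forms of a motif were not counted.

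A list of 20 other genes of the pathway, from kinases and adaptors of inhibition such as Csk, Pag1 and Sit1 to the ubiquitin ligases Cbl and Itch and the Ras regulators Rasa2 and Spry1, was counted in the same way. Together they had 124 WT and 118 dKO sites. Of these, 29 WT sites lacked a dKO site (23.4%, against 27.6% of all WT sites). A WT site was lacking at 22 dKO sites (18.6%, against 14.4% of all dKO sites). Of the 20, 6 had more WT sites, 5 had more dKO sites and 9 had equal numbers. Of 95 shared sites, 15 ranked at least 20 points higher in WT and 8 in dKO. Over all shared sites, 13.7% and 6.75% did so. Map4k1, which encodes the kinase HPK1, and Cbl had 3 WT sites each without a dKO site and none the other way, and Csk had 4 in each direction. These counts depend on how many other genes each window holds, and no test of the difference was made.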

How the data were processed

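DNase-seq of sorted naïve CD8+ T cells was analysed, 3 WT and 2 dKO replicates. Per the methods, nuclease-digested DNA was amplified, size-selected and read from both ends, and uniquely aligned mm9 reads were kept. Per the submitters' processing notes, FastQC, Bowtie2 2.2.5 and MACS2 2.1.1 were used. Replicates were merged by genotype before MACS2 was run without a control, which gave 1 list per genotype. In the deposited lists, pileup is an unscaled signal, in fragments over the summit. Fold enrichment, also deposited, relates it as a ratio to the pool's own local background. The deposited -log10 p and -log10 q values come from the authors' test of each summit against that background. The dKO pool is the shallower (62242963 against 83923734 fragments, per the file headers), and WT pileups scaled to it were set beside the pileup that the criteria need.

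From these lists, sites were selected by the study's criteria, joined by overlap of at least 1 bp, ranked within their list and annotated with gencode M1 for mm9, using transcript 001 of each gene or its longest coding one. No peak ended beyond a chromosome of the reference. Intervals of shares are Wilson intervals and those of pileup ratios exact binomial intervals. No p-value between genotypes was computed. The overlap, rank and motif steps were tested on simulated data. Named were all 8 genes, their promoter sites, the site of highest fold enrichment, every site in 1 list only, and every shared site 20 points or 2-fold apart. The genes and lists were chosen with earlier results of these data known. Alternatives are given in the closing section. Computation used Python 3.11.15, numpy 2.4.6, pandas 2.3.3, scipy 1.17.1, pysam 0.24.0 and matplotlib 3.10.9.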

Additional observations from a re-analysis of the deposited data

How the results depend on the processing

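Of 100 alternative values of the 11 counts, shares and medians over the 8 loci, 76 stayed near the main value. This meant within 1.5 times of a count, or inside the interval of a share. For the median it meant inside the interquartile range of the ratios of the 46 shared sites. A minimum fold enrichment of 8 left 32 WT and 28 dKO sites, and 0 shared sites past 2-fold in either direction. With the lists as deposited, 1 shared site ranked at least 20 points higher in dKO. With the top 20000 peaks per list by -log10 p, 47 WT and 44 dKO sites were left, 23.4% and 18.2% of them without a site in the other list, 3 of the 8 genes in place of 7 had more WT sites, and 0 shared sites were past 2-fold in either direction. The share of dKO sites without a WT site, 8.0% with the study's criteria, was 17.9% with a minimum fold enrichment of 8. Gene bodies alone held 25 WT and 18 dKO sites, 0 shared sites ranking at least 20 points higher in WT, 1 ranking higher in dKO, 0 past 2-fold in favour of WT, and ATCAAAG in 0% of WT and 0% of dKO sites. A window of 10 kb left 3 shared sites ranking at least 20 points higher in WT. Gene bodies with 50 kb upstream left 4, and 0 past 2-fold in favour of WT. Ranking by -log10 p gave 2 shared sites at least 20 points higher in dKO, and ranking by pileup gave 13 higher in WT and 1 higher in dKO. Scaling by the fragments of each pool put 2 shared sites, both beside Dgka, past 2-fold in favour of WT and 0 in favour of dKO. ATCAAAG within 50 bp of the summit was found at 0% of WT and 0% of dKO sites, and the Runx core at 14.3% of the WT-only sites in place of 28.6%. Several of the alternatives admit fewer sites or bases, and the cause of these moves was not tested. All 12 shared sites named for a difference kept its direction under ranking by -log10 p, ranking by pileup and scaling by fragments, as did the 5 that a fold enrichment of 8 left shared. Ranking by -log10 p brought 2 of the 12 (Cd5 site 3 and Ptpn6 site 12) under 20 points, and ranking by pileup 3 (those and Cd5 site 8). No paired analysis was possible because the replicates were pooled before peaks were called, and for the same reason no replicate could be left out.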
